A study of Mus musculus with 91 samples.

Results

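Tight junctions seal neighbouring epithelial cells to each other, and 9 genes of this seal and of the adhesion beside it were followed through 91 single cells of the mouse caudal lateral epiblast. The genes were chosen by name from the 53379 genes counted: the claudins Cldn3, Cldn4, Cldn6 and Cldn7, the membrane proteins occludin (Ocln) and tricellulin (Marveld2), the scaffold ZO-1 (Tjp1), the junctional adhesion molecule JAM-A (F11r) and the adhesion molecule Epcam. The cells came from wild type MF1 mice, an outbred strain, at the early headfold stage, about embryonic day 8.0. A strip flanking the node and the adjoining part of the primitive streak was dissected, with most of the mesoderm beneath it taken off, and was pooled, dissociated, sorted one cell to a well and sequenced by Smart-seq2. No label ties a cell to an embryo, so the cells form 1 sample. Differences between cells are therefore given as sizes, with the standard deviation (SD) over cells and without a test.

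A cell was called epiblast-like when its level of Nkx1-2, a transcription factor gene of caudal progenitors, was above that of Aldh1a2, a gene for retinoic acid production that early paraxial mesoderm expresses, and mesoderm-like otherwise. This gave 43 epiblast-like cells (47.3%, exact 95% interval 36.7 to 58%) and 48 mesoderm-like cells. None of the 9 genes entered the rule. Total counts ran from 1260653 to 3927737 in epiblast-like cells and from 709866 to 4439571 in mesoderm-like cells, with medians of 2450073 and 2589802, so that the classes were sequenced to a like depth. Levels are counts scaled to a total of 1000000 in each cell (CPM), and a gene was detected in a cell when it had at least 1 read. Of the 9 epiblast markers 7 were detected in at least 50% of the epiblast-like cells, and of the 10 mesoderm markers 8 were detected in at least 50% of the mesoderm-like cells and 0 in as many epiblast-like cells. Nkx1-2 and Aldh1a2, which set the classes, are among these markers, so the counts follow in part from the rule. The epiblast markers were less exclusive, since 5 of the 9 (Nkx1-2, Wnt8a, Pou5f1, Sox2 and T) were also read in at least 50% of the mesoderm-like cells. The epiblast-like cell in well B10 was closest to the threshold, with Nkx1-2 at 688 CPM and Aldh1a2 at 570 CPM. On the other side was the cell in well G3, at 164 and 301 CPM.

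Claudins are membrane proteins whose extracellular loops join into the strands of the tight junction, and the set of claudins that a cell makes sets how tight and how selective its seal is. Occludin and tricellulin share a 4-pass membrane fold with claudins without being related to them in sequence, and tricellulin gathers where the corners of neighbouring cells meet. ZO-1 ties the strands to actin under the membrane, JAM-A is an immunoglobulin-like adhesion protein at the same site, and Epcam lies along the lateral membrane, where it binds and stabilises claudin-7. Epiblast is an epithelium, and cells that leave it through the primitive streak to become mesoderm give up this organisation in an epithelial to mesenchymal transition, in which transcription factors of the Snail and Zeb families bind E-box letters and repress genes of epithelia.

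The start regions of the 9 genes are shown for that reason. In the RefSeq promoter windows of the same build (GRCm38.p6, 250 bases before to 50 after an annotated start site), the letters CAGGTG or their reverse complement CACCTG, both strands counted, were present in at least 1 window of 8 of the 9 genes, Tjp1 being the exception. They were present for 22.6% of the 27025 genes with a window and for 19 of 52 other tight junction genes (36.5%). The GC box letters GGGCGG or CCGCCC, searched in the same windows, were present for 9 of the 9 genes, for 38.2% of all genes and for 35 of the 52 (67.3%). The wider E-box CANNTG, which includes those letters, was present for 8 of the 9 genes and for 74.99% of all genes. Matches are in capitals, each with 30 bases read 5′ to 3′ on the strand of the gene, and the position counted from the start site to the first base of the match.
Cldn3, 31 bases after the start, in the exon (chr5:134986233-134986262, + strand): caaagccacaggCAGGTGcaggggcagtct
Cldn4, 14 bases before the start (chr5:134946931-134946960, - strand): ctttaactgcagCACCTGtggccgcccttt
Cldn6, 93 bases before the start (chr17:23679260-23679289, + strand): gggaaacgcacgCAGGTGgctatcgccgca
Cldn7, 97 bases before the second start (chr11:69965312-69965341, + strand): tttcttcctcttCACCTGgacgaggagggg
Ocln, 7 bases after the start (chr13:100552694-100552723, - strand): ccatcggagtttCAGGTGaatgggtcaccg
Marveld2, 16 bases after the second start (chr13:100616911-100616940, - strand): ccggcggccgcgCAGGTGagtggggccgcg
F11r, 122 bases before the start (chr1:171437427-171437456, + strand): agttcggggttgCACCTGcgtacggtgagt
The match in Marveld2, and further ones in Cldn6, Cldn7 and Ocln that are not printed, lie across the end of an annotated exon, where the same letters are part of the splice donor. The Cldn6 and Cldn7 matches printed lie within an annotated exon of their gene although before the start site of the window. Cldn4 had a further match 11 bases after the start, in the exon, also not printed. The start site of the Tjp1 window is at chr7:65371244 (- strand), inside the annotated gene, whose 5′ end at 65527781 was not searched.

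Epcam had a match 187 bases and another 19 bases before its start, and the 250 bases before the start (chr17:87635729-87635978, + strand) lie outside the annotated gene. They are printed whole because Epcam was the gene of the 9 that every epiblast-like cell carried.
Epcam: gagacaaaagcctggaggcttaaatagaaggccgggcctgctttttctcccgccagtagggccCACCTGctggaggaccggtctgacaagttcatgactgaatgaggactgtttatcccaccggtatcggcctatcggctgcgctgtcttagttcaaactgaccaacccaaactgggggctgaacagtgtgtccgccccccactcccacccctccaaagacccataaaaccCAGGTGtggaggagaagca
The match was thus present at genes that differed between the classes, such as Epcam and Cldn6, and at F11r, which did not differ 2-fold. It says nothing of whether a factor was bound.

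Epiblast-like cells had at least 2-fold higher levels of 6 of the 9 genes, by the ratio of mean CPM with 1 CPM added to both means (Cldn3, Cldn6, Cldn7, Ocln, Marveld2 and Epcam), as did 8.18% of the 18054 genes that had a read in 3 cells or more. None of the 9 reached 2-fold in the direction of mesoderm-like cells, where 9.55% of the genes did. The median log2 ratio, epiblast-like over mesoderm-like, was 2.26 over the 9 genes and 0.01 over all 18054. Cldn4 had reads in 2 cells and so was not among the 8 genes of the 9 that passed the filter. The mean is carried by few cells for most of these genes. When the median CPM of each class was compared in place of the mean, Epcam alone was at least 2-fold higher, since the other called genes had no read in most epiblast-like cells.

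**Figure D1:**
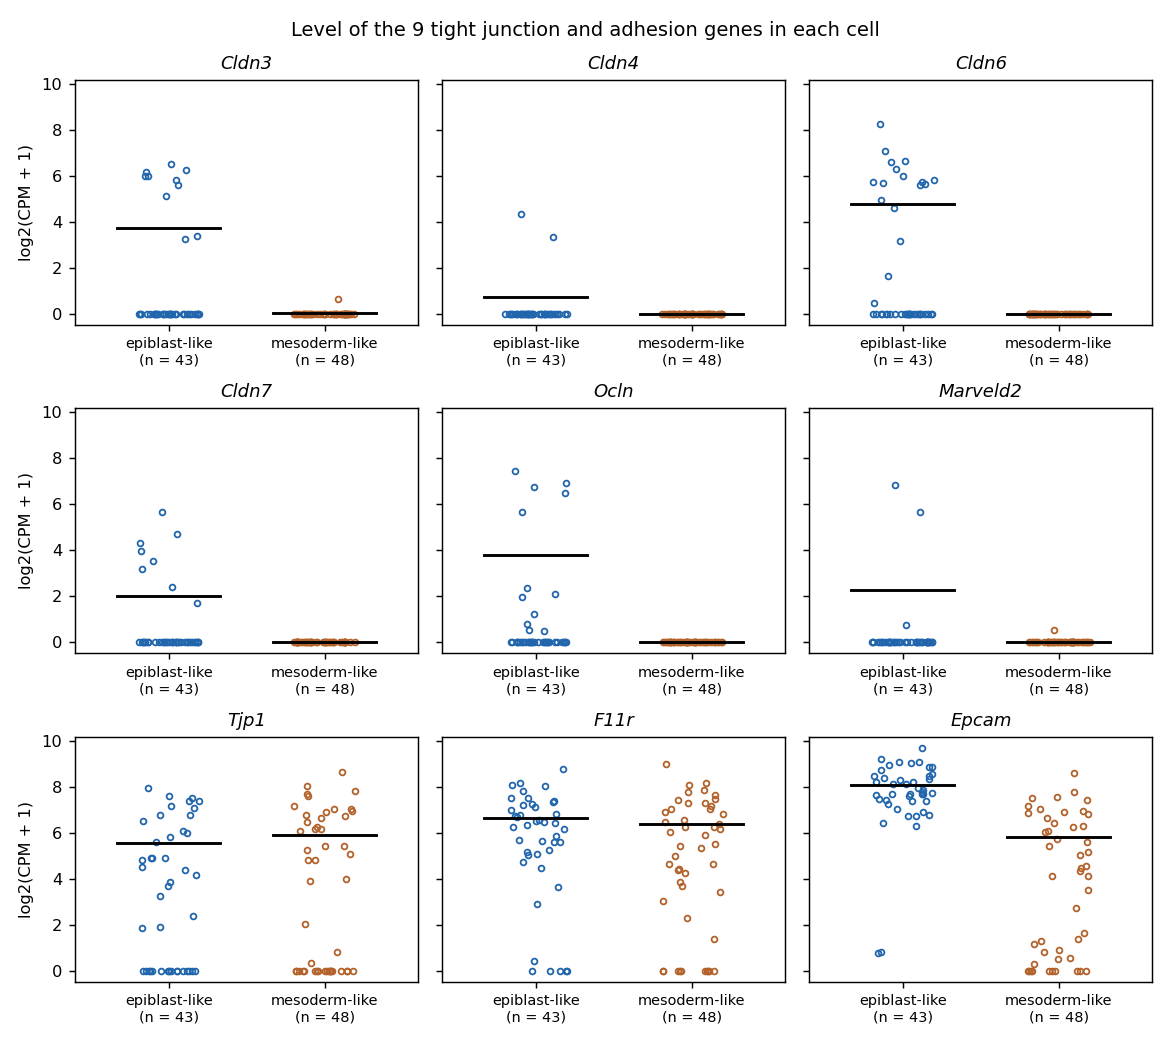
Level of each gene in every cell as log2(CPM + 1), in 43 epiblast-like cells (blue) and 48 mesoderm-like cells (brown), each circle being 1 cell and the black line the mean CPM on the same scale. The 4 claudins, Ocln and Marveld2 show some epiblast-like cells well above 0 and nearly all mesoderm-like cells at 0, while Tjp1 and F11r spread alike in both classes and Epcam lies highest in epiblast-like cells.

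Cldn6, a claudin of embryonic epithelia, was the claudin of the 4 found in the most cells. It was detected in 17 of 43 epiblast-like cells (39.5%, exact 95% interval 24.98 to 55.6%) while 0 of 48 mesoderm-like cells had a read, so that up to 6.25% of such cells (3 of 48, or 7.40% as the exact upper limit) could carry reads. Its level averaged 26.6 ± 54.7 CPM (SD over 43 cells). The parts of the plate differed: 10 of 19 epiblast-like cells in rows A to D had Cldn6 and 7 of 24 in rows E to H, with log2 ratios of 5.38 and 4.03. Within the 17 cells the lowest level was 0.36 CPM (1 read), the median 51.5 CPM and the highest 303 CPM, in the cell in well D7, which alone held 26.6% of the summed level. No read was found in the other 26 cells. Against a floor of 3 counts in each mesoderm-like cell, a mean of 1.24 CPM, the level of Cldn6 was at least 21.4-fold higher in the epiblast-like class. Of the 17 cells 16 held at least 5 reads. The gene lies on GRCm38 chromosome 17, 23679249 to 23682446.

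Cldn3, a claudin of many tight epithelia, was detected in 10 epiblast-like cells (23.3%, 11.8 to 38.6%) and with 1 read in 1 mesoderm-like cell. It averaged 12.04 ± 25.5 CPM in epiblast-like cells. No detection there rested on few reads: the 10 cells held 28 to 187 reads, with a lowest level of 8.55 CPM, a median of 59.4 CPM and a highest of 90.6 CPM. All 10 lay above the 1 mesoderm-like cell with a read. With 1 CPM added the ratio was 12.9-fold, and against the floor of 3 counts it was 9.71-fold. Without either it was 1058-fold, a value that rests on the single read, with a counting interval from 190 to 41808 that covers counting error only and treats reads as independent. Cldn3 shares 40 bases with the antisense gene Wbscr25, and the sources used here do not say whether counting used the strand.

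Cldn7, the claudin that Epcam binds, was lower. It was detected in 8 epiblast-like cells (18.6%, 8.39 to 33.4%) and in 0 of 48 mesoderm-like cells, at 3.07 ± 8.96 CPM over all epiblast-like cells. The 8 cells held between 4 and 89 reads, and the highest reached 49 CPM in the cell in well H8. The ratio was at least 2.48-fold against the floor. That cell held 37.1% of the summed level, and without it the bound was 1.59-fold and the log2 ratio, with 1 CPM added, 1.57. One of the 8 was the borderline cell in well B10, at 24.8 CPM.

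Cldn4, the neighbour of Cldn3 on chromosome 5, was detected in 2 epiblast-like cells, with 51 reads in well E1 and 30 in well H9, and in 0 of 48 mesoderm-like cells. Its mean of 0.66 ± 3.21 CPM was under the floor, so no ratio is given. Cldn3 (chromosome 5, 134986214 to 134987472) and Cldn4 (134945119 to 134946934) lie 39279 bases apart with 0 annotated genes between them, and no cell had reads of both. With Cldn3 in 10 and Cldn4 in 2 of 43 epiblast-like cells, this is too few to tell whether the genes avoid each other.

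Ocln and Marveld2 are the MARVEL-domain genes of the set. Ocln was detected in 12 epiblast-like cells (27.9%, 15.3 to 43.7%) at a mean of 12.8 ± 37.5 CPM, and in 0 of 48 mesoderm-like cells. Of the 12, 4 held 1 to 4 reads and 5 held the bulk, between 49.8 CPM in well H5 and 173 CPM in well A4. The 3 highest cells made up 72.7% of the summed level. Ocln was thus a gene of a few high cells, with a mean at least 10.3-fold higher in the epiblast-like class against the floor. At a threshold of 10 CPM only 5 of the 12 cells remained.

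Marveld2 was detected in 3 epiblast-like cells, at 0.67, 49.1 and 114 CPM, and with 1 read in 1 mesoderm-like cell. The highest cell, in well E5, held 69.7% of its summed level in epiblast-like cells. Without the highest cell of each class the log2 ratio was 1.13 in place of 2.26, and in rows A to D of the plate, where 1 epiblast-like cell had a read, it was 0.03. Its place among the higher genes therefore rests on 2 cells. Ocln and Marveld2 lie 43238 bases apart on chromosome 13, and no cell had reads of both. With Ocln in 12 and Marveld2 in 3 of 43 epiblast-like cells, that absence too says little.

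The genes for the scaffold and for JAM-A did not follow the claudins. The mean of Tjp1 was 45.97 ± 65.6 CPM in the epiblast-like class and 59.1 ± 84.3 CPM in the other, a log2 ratio of -0.35. It was detected in 27 of 43 (62.8%, 46.7 to 77.02%) and in 29 of 48 cells (60.4%, 45.3 to 74.2%). F11r averaged 97.4 ± 93.6 and 81.5 ± 101 CPM, a log2 ratio of 0.25, and was detected in 38 of 43 and in 38 of 48 cells. F11r was at 0.82 with the mean of log2(CPM + 1) and at 0.88 with the ratio of median CPM. With classes set by 6 other markers it was at -0.19, so its direction is not settled. For both genes the difference of the means was well under the SD over cells, and the classes overlapped through their whole range. Of the mesoderm-like cells 18 (37.5%) had more F11r than the median epiblast-like cell, and 26 (54.2%) had more Tjp1. Of the 75-base stretches of F11r 0.188% also occur in other genes, and none of those of the other 8 genes do.

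Epcam stood between the claudins and F11r: high in epiblast-like cells, and lower without being absent in mesoderm-like cells. It was detected in 43 of 43 epiblast-like cells at 272 ± 171 CPM, with a median of 218 CPM and a highest level of 826 CPM. Of these cells 41 were at 76.5 CPM or more, and the other 2 stood apart with 2 and 3 reads: the borderline cell in well B10 (0.72 CPM) and the cell in well G12 (0.76 CPM). Neither was shallow, and both had Cdh1, which encodes E-cadherin, at 226 and 330 CPM. In mesoderm-like cells Epcam averaged 55.7 ± 77.9 CPM, with a median of 20.2 CPM, and was detected in 38 of 48 cells (79.2%, 65.01 to 89.5%). Of those 38 cells, 8 held 1 to 4 reads. Only 1 mesoderm-like cell was above the epiblast-like median, and the ratio of the means was 4.82-fold. The log2 ratio was 2.27 over all cells, 2.91 in rows A to D of the plate and 1.74 in rows E to H.

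Per kilobase of exon, the scale on which genes can be compared, the order in epiblast-like cells was Epcam (124 ± 77.98 CPM per kb), F11r (36.6 ± 35.2), Cldn6 (15.4 ± 31.8), Cldn3 (9.56 ± 20.2), Tjp1 (5.89 ± 8.39), Ocln (3.03 ± 8.88), Cldn7 (1.58 ± 4.60), Marveld2 (1.13 ± 5.56) and Cldn4 (0.36 ± 1.77). Epcam exceeded F11r by more than 1 SD of either gene. All the other neighbours in this order differed by less than the SD over cells. In mesoderm-like cells F11r came first at 30.6 CPM per kb, with Epcam at 25.4 and Tjp1 at 7.56, and each of the other genes was below 0.01.

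**Figure D2:**
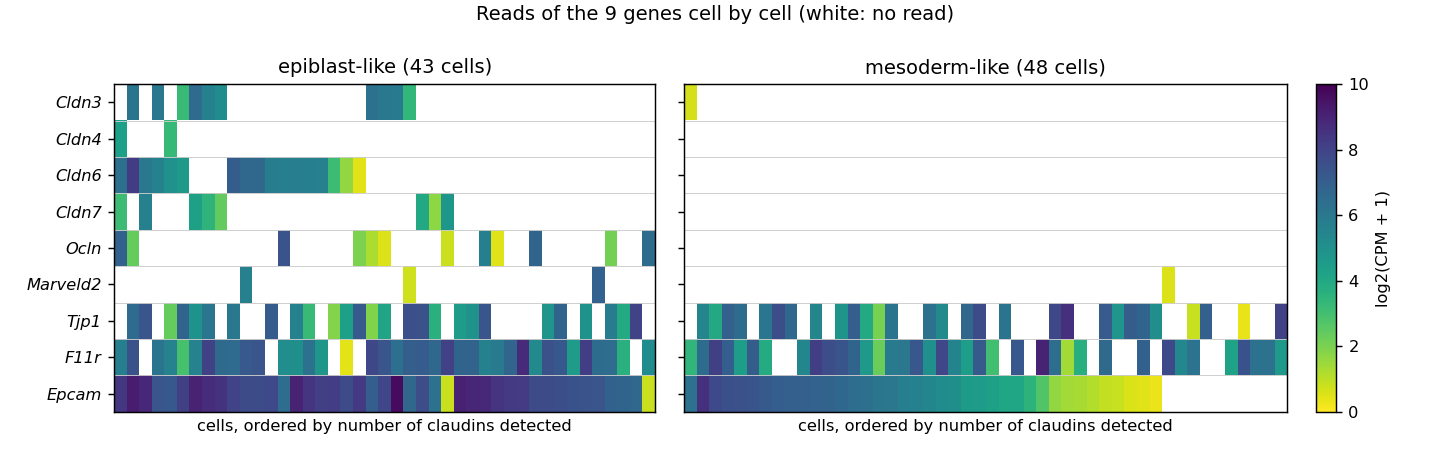
Level of the 9 genes (rows) in each cell (columns) as log2(CPM + 1), white meaning no read, with the 43 epiblast-like cells on the left and the 48 mesoderm-like cells on the right, the cells of each class ordered by how many of the 4 claudins they had and then by Cldn6, Cldn3 and Epcam level. The claudin rows fill partly different cells: 9 epiblast-like cells have at least 2 of the 4 claudins and 16 have none. The right panel is nearly empty above Tjp1, F11r and Epcam.

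A single epiblast-like cell carried only some of the genes. It had reads of 3.72 ± 1.01 of the 9 on average (median 4, range 2 to 6), against 2.23 ± 0.78 (median 2, range 0 to 3) in mesoderm-like cells. Of the epiblast-like cells 4 had 2 of the genes, 15 had 3, another 15 had 4, 7 had 5 and 2 had 6. No mesoderm-like cell had more than 3 and 20 had 3, in 19 of which the 3 were Epcam, F11r and Tjp1. The 1 cell with none was mesoderm-like, in well E8, with 2644670 counts, Aldh1a2 at 3256 CPM and Tbx6 at 1201 CPM, the highest level of either gene in any cell. The number of genes per cell had a Spearman rho with the total count of 0.02 over 43 epiblast-like cells and 0.08 over 48 mesoderm-like cells, and with the number of all genes detected of 0.21 and 0.22.

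At least 1 of the 4 claudins was detected in 27 of 43 epiblast-like cells (62.8%, 46.7 to 77.02%), of which 18 had 1 claudin, 8 had 2 and 1 had 3. The share with at least 2 was thus 9 of 43 (20.9%, 10.04 to 36.04%), against 0 of 48 mesoderm-like cells. Counting the claudins Cldn5 and Cldn12 as well raised it to 24 of 43 cells, with 12 at exactly 1 and 7 at none, against 1 of 48 mesoderm-like cells. Of the mesoderm-like cells 22 then had at least 1 claudin and 26 had none. Cldn6 was the only one of the 4 in 11 cells, Cldn3 in 4 and Cldn7 in 3. Cldn3 was joined by Cldn6 in 3 cells and by Cldn7 in another 3, and both cells with Cldn4 also had Cldn6. The cell in well E1 had Cldn4, Cldn6 and Cldn7, along with Ocln at 119 CPM. The cell in well D7 had the highest Cldn6 of all, with Cldn3 at 69.8 CPM and Epcam at 597 CPM.

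**Figure D3:**
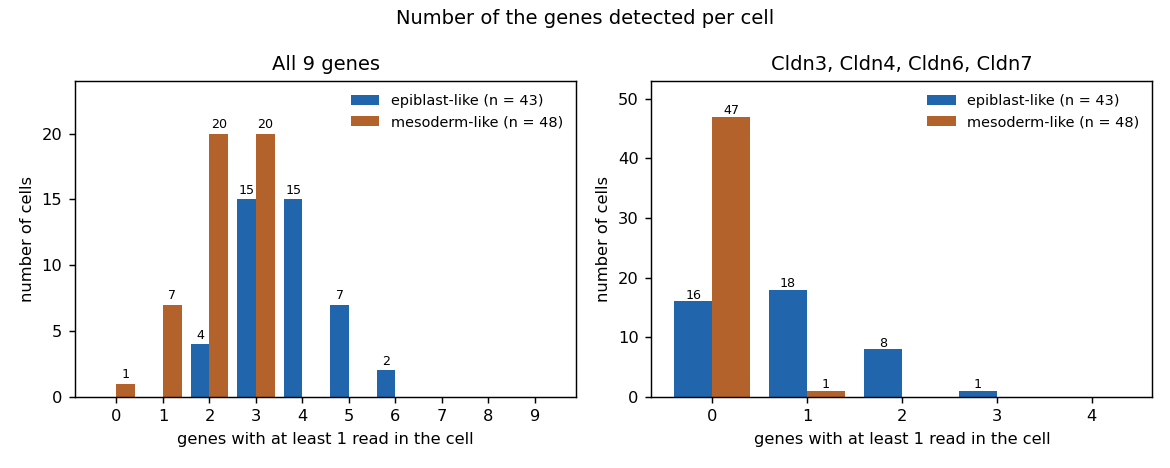
Number of cells (y axis) by the number of genes with at least 1 read (x axis), for all 9 genes (left) and for the 4 claudins (right), with epiblast-like cells in blue and mesoderm-like cells in brown and the count above each bar. Epiblast-like cells centre on 3 and 4 genes and mesoderm-like cells on 2 and 3, and 47 of 48 mesoderm-like cells have none of the 4 claudins against 16 of 43 epiblast-like cells.

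Pair by pair, the cells of one gene were shared only in part with those of another, Epcam and F11r apart. Of the 10 epiblast-like cells with Cldn3, 3 had Cldn6, and so did 14 of the 33 cells without Cldn3. Of the 17 cells with Cldn6, 4 had Ocln (8 of 26 without), 11 had Tjp1 (16 of 26) and 13 had F11r (25 of 26). Every one of the 10 Cldn3 cells had F11r, as did 28 of the other 33. Over the 36 pairs, the Spearman rho of levels over the 43 cells ran from -0.29 (Cldn6 and F11r) to 0.26 (Cldn4 and Cldn6). These cells share 1 pool and plate, and correlations of this size in sparse counts are given as a description only.

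Strand proteins, the MARVEL pair and the scaffold were each detected in only part of the 43 epiblast-like cells. At least 1 of the 4 claudins was read in 27 of them, Ocln or Marveld2 in 15 and Tjp1 in 27. Ocln or Marveld2 was read in 9 of the 27 cells with a claudin and in 6 of the 16 without. A claudin with Ocln or Marveld2 was detected in 9 of 43 epiblast-like cells (20.9%), a claudin without either in 18, Ocln or Marveld2 without a claudin in 6, and none of these genes in 10. With Tjp1 added there were 5 cells, and with F11r and Epcam as well 4 (9.30%, 2.59 to 22.1%). These 4 cells held few reads of the MARVEL pair: 2 of Marveld2 in well A2, and 1, 3 and 9 of Ocln in wells F9, G8 and D7. Among the 9 cells with a claudin and Ocln or Marveld2, well B10 had 2 reads of Ocln and well G9 had 1 read of Cldn6. The shares therefore depend on counting a single read as detection. Of the mesoderm-like cells 46 of 48 (95.8%) had none of the 4 claudins, Ocln and Marveld2, yet 19 of them (39.6%) had Epcam, F11r and Tjp1 together, as had 22 of 43 epiblast-like cells (51.2%).

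**Figure D4:**
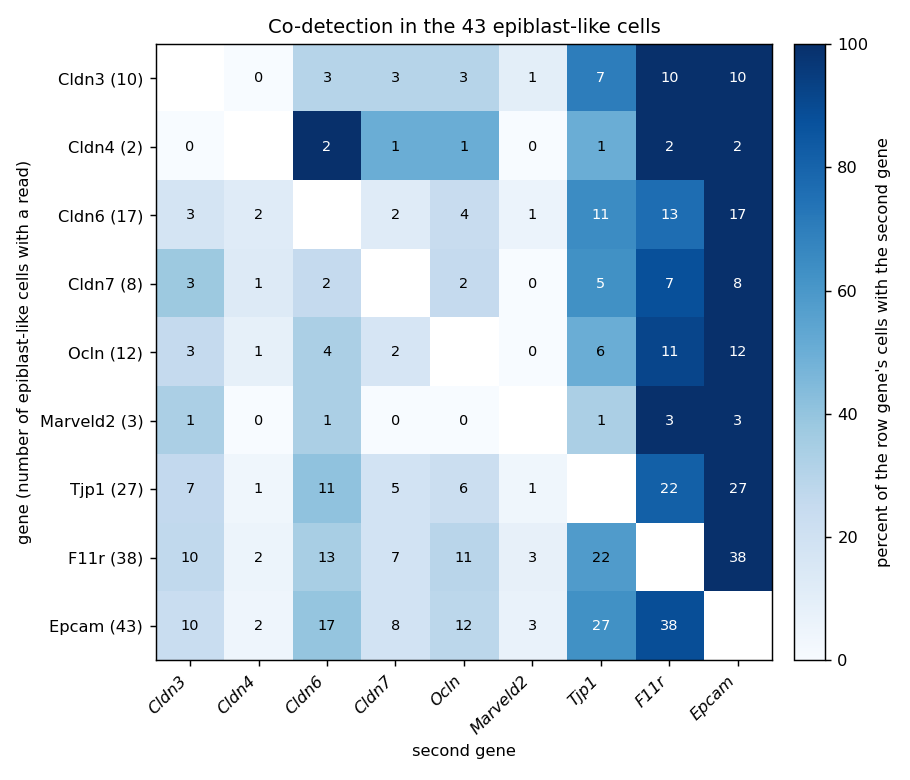
For each row gene, the number (in the square) and percent (colour) of its epiblast-like cells that also had the column gene, with the number of cells of the row gene in brackets and the diagonal left white. Columns F11r and Epcam are dark for every row, while the squares among Cldn3, Cldn6, Cldn7 and Ocln hold 2 to 4 cells.

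The claudin-bearing cells, meaning those with at least 1 of the 4 claudins whether or not they had Cldn5 or Cldn12, were next set beside other genes. The 27 cells with a claudin had Epcam at 289 ± 182 CPM, against 244 ± 152 CPM in the 16 without, and Cdh1 at 238 ± 165 against 339 ± 179 CPM. Both differences were under the SD over cells. Brachyury (T), a gene of the streak and of early mesoderm, was at 153 ± 296 against 354 ± 443 CPM, again under the SD. By detection, the mesoderm markers went both ways. Tbx6, which commits cells to paraxial mesoderm, was detected in 5 of 27 against 9 of 16 cells, Hes7 in 6 against 11 and Msgn1 in 1 against 4. Dll1 (8 of 27 against 3 of 16), Aldh1a2 (10 against 5) and Pdgfra (7 against 3) were read in a larger share of the claudin-bearing cells. The other mesoderm markers were read in at most 3 cells of either group. Aldh1a2 had only 1 to 4 reads in 13 of its 15 cells, and 97.6% of its summed level lay in well B10. Pdgfra was at 0.49 ± 1.58 against 0.32 ± 1.08 CPM. By level Dll1 was lower in the claudin-bearing cells, at 13.3 ± 45.7 against 29.5 ± 117 CPM. The 10 mesoderm markers summed to a median of 4.91 CPM in the 27 cells and 81.2 CPM in the 16 (means 56.3 ± 190 and 135 ± 174 CPM). Depth did not set these cells apart, with median totals of 2473606 and 2363683 counts and medians of 8172 and 8184.5 genes.

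By single claudins, Tbx6 went with few Cldn6 cells: Cldn6 was detected in 2 of the 14 epiblast-like cells with Tbx6 and in 15 of the 29 without. Cldn3 (2 of 14 against 8 of 29) and Cldn7 (2 of 14 against 6 of 29) differed less, and Ocln was alike (4 of 14 against 8 of 29). Reads of Snai1, which encodes a Snail family repressor, were found in 7 epiblast-like cells. At least 1 of the 4 claudins was read in 4 of these 7 cells and in 23 of the 36 without Snai1. Cldn6 was read in 3 of 7 against 14 of 36 (1 of the 3, in well G9, by a single read), Cldn3 in 2 against 8, Cldn7 in 2 against 6 and Ocln in 1 against 11. Epcam was read in all 7, at 310 ± 135 CPM against 265 ± 178 CPM in the 36 cells without Snai1.

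Among mesoderm-like cells Epcam was read in 38 and Cdh1 in 22. Epcam was detected with Cdh1 in 19 of 48 cells and without it in another 19, whereas 3 cells had Cdh1 without Epcam and 7 had neither. Of the 22 cells with Cdh1, 19 had Epcam (60.3 ± 69.1 CPM), as did 19 of the 26 without (51.9 ± 85.8 CPM). The 38 cells with Epcam had Nkx1-2 at 60.9 ± 105 CPM and T at 459 ± 334 CPM, against 12.5 ± 26.6 and 304 ± 214 CPM in the 10 cells without, and Tbx6 at 310 ± 192 against 385 ± 312 CPM. Each of these differences was smaller than the larger SD of its groups. After every cell was thinned to 500000 counts, Epcam was detected in 33 of 48 mesoderm-like and 41 of 43 epiblast-like cells, Cldn6 in 15 epiblast-like cells, Cldn3 in 9 and Ocln in 9.

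The other genes of the junction differed in both directions. Of 75 other genes of tight junctions and of the polarity, protease and transcription factor programmes tied to them, 74 were found by name and 43 had a read in at least 3 cells. Of the 43, 7 reached 2-fold in favour of epiblast-like cells (8.18% of all 18054 genes did) and 6 in favour of mesoderm-like cells (9.55% did). The remaining 30 did so in neither direction, and the median log2 ratio of the 43 was 0.04. Those higher in the epiblast and read in at least 50% of its cells were Pard6b, a polarity adaptor (39.1 ± 69.1 against 6.10 ± 19.5 CPM), Nectin2, an adhesion protein of adherens junctions (182 ± 102 against 34.1 ± 43.7 CPM), Esrp1, a splicing regulator of epithelia (20.4 ± 30.2 against 5.71 ± 27.01 CPM), and Spint2, a protease inhibitor (82.8 ± 66.1 against 27.2 ± 33.3 CPM). Of these Nectin2 and Spint2 were read in 43 and 42 of the 43 cells. Crb3 and Cgnl1 were also called, from 3 and 17 cells.

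In the other direction stood Amot, which encodes the junction-associated angiomotin (24.2 ± 54.1 against 178 ± 183 CPM), and Magi1, a junctional scaffold (113 ± 85.4 against 372 ± 252 CPM). Arhgef11, Grhl3, Magi3 and Ildr2 were called as well, each read in under 50% of the mesoderm-like cells. Cgn, which encodes cingulin, differed by less than the SD over cells (25.3 ± 35.1 against 19.6 ± 26.3 CPM).

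Of the 22 claudins outside the 4, 9 had a read in any cell. Cldn5, best known from endothelium, was detected in 15 epiblast-like cells at 21.8 ± 40.2 CPM, and with 1 read in 1 mesoderm-like cell. Of those 15 cells 13 also had at least 1 of the 4 claudins and 9 had Cldn6. With Cldn5 counted, 29 of 43 epiblast-like cells had a claudin and 17 had at least 2. Cldn12 was the claudin present in both classes, in 22 and 21 cells at 88.1 ± 127 and 53 ± 122 CPM. Cldn1, Cldn9, Cldn10, Cldn15, Cldn18 and Cldn19 were each read in 1 mesoderm-like cell, Cldn11 in 2, and the other 13 in none. Cldn5 had no CAGGTG or CACCTG in its promoter window.

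**Figure D5:**
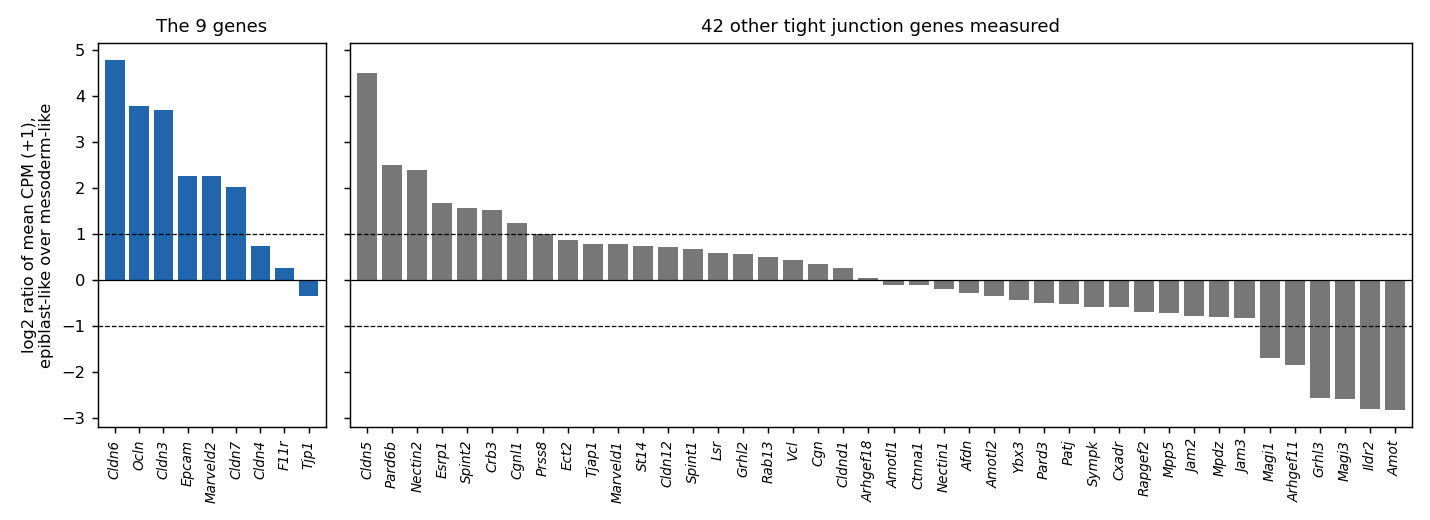
Log2 ratio of mean CPM, 1 CPM added, of epiblast-like over mesoderm-like cells for the 9 genes (blue, left) and for 42 of the 43 other tight junction genes with a read in 3 cells or more (grey, right), with dashed lines at 2-fold in each direction. The 9 genes run from 4.78 (Cldn6) to -0.35 (Tjp1), whereas the other genes run to both sides, from 4.50 (Cldn5) to -2.83 (Amot).

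Across all 91 cells, the genes most like the 9 were sought by the Spearman rho with the mean log2(CPM + 1) of the 9, among 13761 genes with reads in at least 10 cells. They were the transcriptional repressor genes Hes1 (0.67) and Hes3 (0.65), Nkx1-2 (0.64), Slc2a1 (0.63), Pim2 (0.63), Sall4 (0.63), Bnip3 (0.61) and Slc7a3 (0.60), and each was higher in epiblast-like cells, as Slc2a1, a glucose transporter gene (1804 ± 805 against 317 ± 224 CPM). The rho is over cells of both classes and so contains the difference between them.

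Other epithelia of the embryo also carry claudins, so the markers of other cell types were read in the same cells. Of 14 markers of endoderm 5 had a read in any epiblast-like cell, their sum was at most 42.8 CPM in a cell, and Sox17, Foxa2, Foxa1, Hnf4a, Afp, Apob, Cubn, Cer1 and Spink1 were at 0. All 5 had a read in the 27 claudin-bearing cells, and 1 did in the 16 others, where the sum was at most 4.89 CPM. Of 8 markers of blood or endothelium 4 had a read in epiblast-like cells (sum at most 40.3 CPM), with Cdh5 at 0, and of 5 node markers 2 did, Nog in 2 cells and Foxj1 in 1, all of them claudin-bearing (sum at most 218 CPM), with Noto, Shh and Chrd at 0. Of 7 markers of surface or extraembryonic ectoderm 4 had a read (sum at most 72.6 CPM), with Krt14, Trp63 and Elf5 at 0. Of 4 neural markers 3 had a read (sum at most 68.5 CPM), with Olig2 at 0, and Sox1 was read in 3 of the 27 claudin-bearing cells and 0 of the 16 others. Of 4 lateral mesoderm markers 2 had a read, in none of the claudin-bearing cells (sum at most 54.5 CPM in the others). Among mesoderm-like cells 1, in well D4, had an endoderm sum of 1711 CPM, all of it Cer1, and no read of the 4 claudins, Ocln or Marveld2. The next highest sum was 122 CPM. The part of the few cells with such reads in the results was not tested.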

How the data were processed

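Single cells of the caudal lateral epiblast were sequenced by Smart-seq2. The authors deposited counts of reads per gene, not normalized, after aligning reads with HISAT2 to GRCm38 (mm10) and assigning them to genes with featureCounts. Versions, annotation and strand setting: not given in the sources used here. Columns were matched to 91 cells by title, and identifiers to 53274 symbols. Smart-seq2 reads carry no molecular identifiers, so intervals (exact Clopper-Pearson, 95%) and floors (3 counts per cell) cover counting error only. Python 3.11.15, numpy 2.4.6, scipy 1.17.1, pandas 2.3.3 and matplotlib 3.10.9 were used.

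Counts were scaled to 1000000 per cell. Genes read (minimum 1) in no fewer than 3 cells were compared by the ratio of mean CPM, 1 CPM added, and called at 2-fold. Exon lengths were those of GENCODE M21. The ratios, size factors and thinning were tested on simulated data. Members, lists, markers and alternatives were chosen with earlier results of these data known. All 9 members were named, and by rule up to 8 other junction genes per direction with reads in at least 50% of the higher class, the other claudins with a read, and the 8 genes most like the members; Crb3, Cgnl1, Arhgef11, Grhl3, Magi3, Ildr2 and Cgn were added after their values were seen. Combinations of genes per cell, other than those of the claudins and pairs, were also chosen after seeing the data. Of the other junction genes 1 is counted but not reported here by name. Doublets were not called, since cells were sorted one to a well.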

Additional observations from a re-analysis of the deposited data

How the results depend on the processing

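The count of 6 genes called higher in epiblast-like cells was repeated under other settings. It ran from 4 to 7 under the other scalings, pseudocount, class rules, depth limit and parts of the plate. The 7 came from rows E to H and included Cldn4, at a log2 ratio of 1.12. The filters on low counts were not applied to this count, which therefore stayed at 6 under them. Marveld2 held at least 5 reads in 2 cells, so a filter of 5 reads in 5 cells would have dropped it. The genes called numbered 3 with the mean of log2(CPM + 1) and 1 with the ratio of median CPM, both of which give less weight to a few high cells. The median log2 ratio of the 9 genes was 0.47 with a pseudocount of 10 CPM, 0.82 with the mean of log2(CPM + 1), 0.00 with the ratio of medians and 1.57 without the highest cell of each class for each gene, the last chosen after seeing the data. Of the other tight junction genes 4 were higher in epiblast-like cells with a pseudocount of 10 CPM and 13 with the mean of log2(CPM + 1). Of all measured genes 316 and 1414 were, against 1476 in the main setting. Epcam was at least 2-fold higher under all 14 alternatives run on its ratio, Cldn3 and Cldn6 under 13, Ocln under 12, Cldn7 under 11 and Marveld2 under 10, and the lowest value of each but Epcam, 0.00, came from the ratio of medians. Tjp1 and F11r were 2-fold different under none of the 14. The filters on low counts are among the 14 and cannot change the ratio of a gene, so they add nothing to these counts. The share of claudin-bearing cells, the share with at least 2 claudins and the genes per cell stayed within the counting interval or 1 SD of their values, and class sizes did too. Under the class rule of 6 other markers 3 epiblast-like cells became mesoderm-like, and the log2 ratio of Cldn7 was 1.31. Without the cell in well B10, also left out after seeing the data, no call of the 9 genes changed and 8 other tight junction genes were called higher in place of 7. F11r, at 0.25, ran from -0.19 under the class rule of 6 other markers to 0.88 with the ratio of medians. No paired analysis was possible because the cells come from 1 pool and no replicate numbers are shared between groups. Reads per gene in single cells limit what can be said of a gene without a read: it was not detected at this depth.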
